A study of Mus musculus with 6 samples.

Results

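Aldosterone-sensitive sodium transport was followed through 9 genes, taken from the deposited count table by symbol: Scnn1a, Scnn1b, Scnn1g, Nr3c2, Hsd11b2, Sgk1, Nedd4l, Tsc22d3 and Atp1b1. All 9 were among the 35275 genes of the table, once each, and all 9 were among the 14883 genes with enough counts for a test. The samples were whole kidneys of wild-type (WT) C57Bl/6 mice, measured by poly-A RNA sequencing 28 days after the blood supply of the kidney had been clamped and released (ischaemia-reperfusion injury). Ischaemia had lasted 20 min in 3 kidneys (mild injury, libraries 7, 8 and 9) and 35 min in 3 kidneys (severe injury, libraries 13, 14 and 15). Every kidney compared had therefore been injured, and uninjured kidneys were not analysed here. Nothing in the labels says whether 1 mouse gave 1 kidney, nor the age or sex of the mice, so p-values cover only the spread between these samples, which may be technical.

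The principal cells of the connecting tubule and collecting duct reclaim the last sodium of the urine. Sodium enters them from the urine through the epithelial sodium channel ENaC, built from an alpha, a beta and a gamma subunit (Scnn1a, Scnn1b, Scnn1g), and leaves towards the blood through the sodium pump. Aldosterone acts on the mineralocorticoid receptor (Nr3c2), which is shielded from glucocorticoids by the enzyme Hsd11b2. It raises the kinase Sgk1, which restrains the ubiquitin ligase Nedd4l and so leaves more ENaC at the cell surface.

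The docking site of Nedd4l on ENaC is a short proline-rich stretch near the end of each subunit, the PY motif, and its loss in the beta or gamma subunit causes an inherited salt-sensitive hypertension, Liddle syndrome. The coding bases around it are shown because they tie the 3 channel genes to the ligase gene among the 9; capitals mark the 5 codons of the motif (GENCODE M21, GRCm38, all on the plus strand). The motif was searched in frame on the coding strand, as 3 CCN codons (proline), 1 codon of any kind and TAC or TAT (tyrosine).
Scnn1a: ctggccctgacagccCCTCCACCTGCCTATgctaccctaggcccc
Scnn1b: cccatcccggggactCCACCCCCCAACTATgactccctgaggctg
Scnn1g: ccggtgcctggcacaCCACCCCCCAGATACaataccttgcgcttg
These stretches lie in the last coding exon of each gene, exon 12 of 12 in Scnn1a (chr6:125343978-125344022), exon 13 of 13 in Scnn1b (chr7:121917967-121918011) and exon 13 of 13 in Scnn1g (chr7:121767451-121767495). After the motif 26 codons remain in Scnn1a, 20 in Scnn1b and 22 in Scnn1g. The 3 subunits held the motif once each and the other 6 genes did not hold these letters. A shorter form of the motif, with fewer prolines, was planned but not searched, so its presence in the other 6 genes is not known here. Over 21504 genes with a complete coding sequence, 230 held it anywhere (1.07%) and 70 within the last 100 codons (0.326%).

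Corticosteroid receptors bind a palindrome of AGAACA and TGTTCT with 3 bases of any kind between them, which reads alike on both strands. RefSeq promoter windows (GRCm38.p6, 250 bases before to 50 after a start site) were on hand for 6 of the 9 genes, 13 windows in all, since Sgk1 has 6 listed start sites and Tsc22d3 has 3. The full palindrome was in 1 of these 13 windows, that of the Sgk1 start site at base 21993890 of chromosome 10, and in 3 of all 32851 windows (0.00913%). It is shown with 20 bases on each side, the palindrome in capitals (chr10:21993681-21993735, plus strand).
Sgk1: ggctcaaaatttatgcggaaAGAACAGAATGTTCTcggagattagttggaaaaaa
The palindrome begins 189 bases before that start site and 965 bases before the next start site of Sgk1, at base 21994666. A looser form, GNACA and TGTNC with 3 bases between them, overlaps it and was in the same window only, against 156 of all windows (0.475%). The single element TGTTCT, which is part of the palindrome, was found on either strand in 4 of the 13 windows, against 19.0% of all windows. A match describes these letters and shows no binding.

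The libraries held between 15240491 and 17730967 gene counts. Levels are given as CPM, the read count scaled to library size with TMM factors, and differences as log2 fold changes, severe minus mild, with their standard error (SE) from edgeR's quasi-likelihood test and p-values adjusted over all 14883 genes by Benjamini-Hochberg. Severe library 14 stood apart: the summed level of 10 proximal tubule markers was 13968 CPM there, against up to 27942 CPM in the other severe libraries and 31884 to 34509 CPM in mild ones. The tissue label held, with Umod, the main protein of the thick ascending limb, at 2949 to 5339 CPM in every library. Of 9 genes that define the adrenal gland, which makes aldosterone and lies beside the kidney, 1 had enough counts for a test, the cholesterol transporter Star, at 3.02 to 3.36 CPM in all 6 libraries. Of the enzymes that make corticosteroids, all named outside the rule, Cyp11b2 and Cyp21a1 had 0 counts in all 6 libraries. That allows up to 0.207 CPM in each (3 counts, counting error only). Cyp11b1 had 2 counts in all, both in severe library 14, and Cyp11a1 had 1, in severe library 15. The summed level of the list was 3.38 to 3.59 CPM in mild and 3.43 to 5.91 CPM in severe libraries.

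The 9 genes showed no difference between severe and mild kidneys that passed the test. None (0 of 9) had an adjusted p under 0.05 in edgeR, where 0.0134% of all genes did (2 of 14883, with 0.00672% in each direction). At an unadjusted p under 0.05 there was 1 of 9, Tsc22d3, against 23.7% of all genes (15.8% higher and 7.89% lower). DESeq2 called 0 of 9, against 7.08% of its genes, and limma-voom called 0 of 9, against 0.0134% of its genes. In 0 of 9 genes were all 3 severe libraries above the mild range or all 3 below it, against 34.0% of all genes tested. The median log2 fold change over the 9 was 0.01 and that over all genes was 0.00019, with single values between -0.28 (Atp1b1) and 0.38 (Tsc22d3). In whole-kidney RNA a smaller number of cells and less RNA per cell cannot be told apart.

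Some other settings called more genes of the table, and others called as many or fewer. Without severe library 13, edgeR called 21.5% of all genes (3269) and 0 of the 9. Without severe library 14 it called 3.33% (501) and 0 of the 9. With sample quality weights in limma-voom 33.9% of all genes (5041) were called and 1 of the 9, Atp1b1, at a log2 fold change of -0.24 (adjusted p = 0.0460). Without severe library 15, edgeR called 0.00664% of all genes (1 gene, higher) and 0 of the 9.

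**Figure D1:**
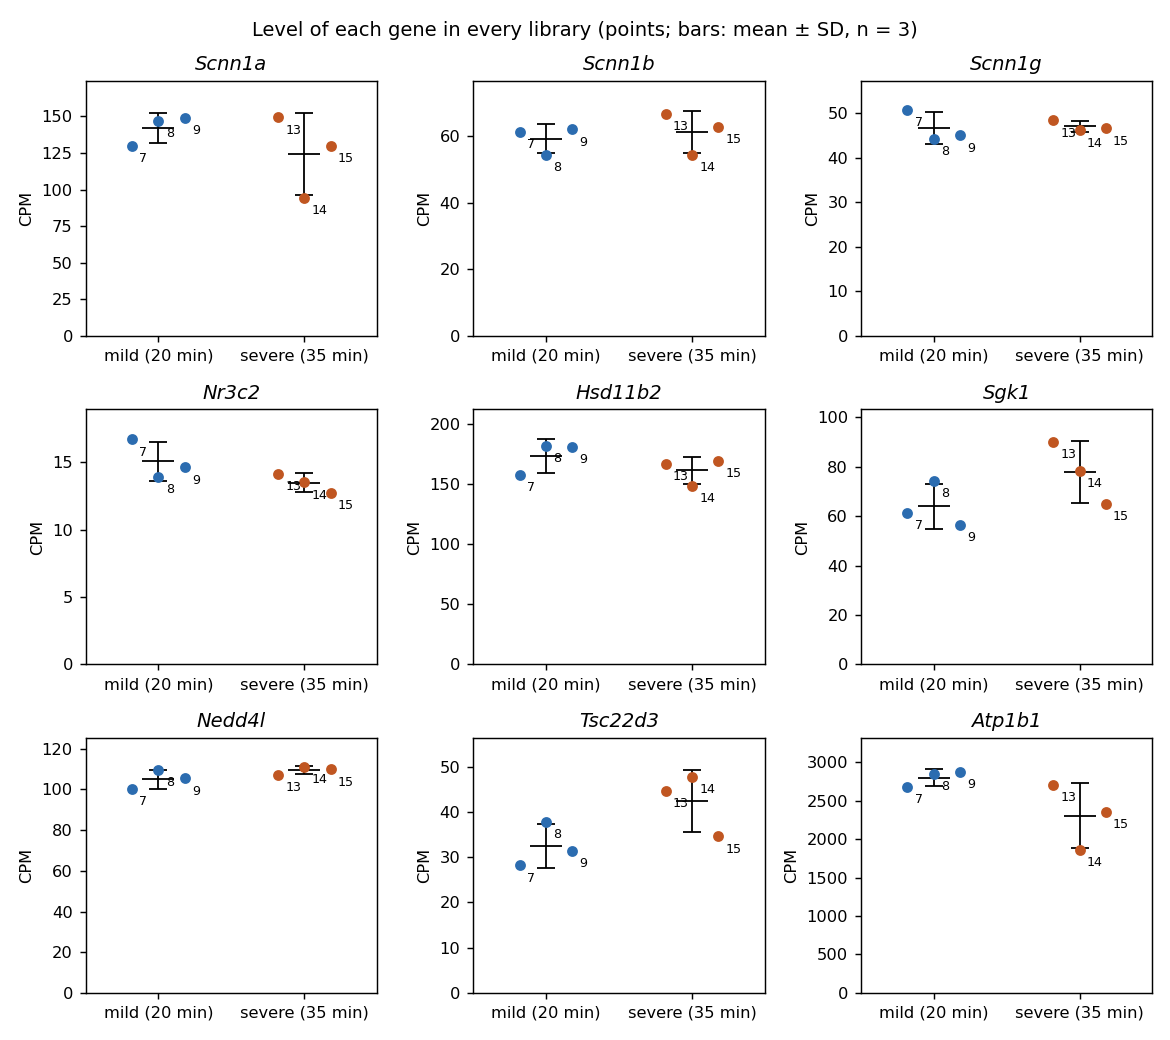
Level of each gene in CPM (vertical axes, from 0) in the 3 mild libraries (blue) and the 3 severe libraries (orange), numbered beside the points, with mean and SD (n = 3). The groups overlap in all 9 panels, and severe library 14 is the lowest point for Scnn1a, Hsd11b2 and Atp1b1. For Scnn1b it is level with mild library 8 to 3 digits.

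The ENaC subunits came first in the path of sodium. Scnn1a (ENSMUSG00000030340, chr6:125320659-125344943, plus strand; gene positions are those of GENCODE M21), the pore-forming alpha subunit without which the channel is not made, was at 130, 147 and 149 CPM in mild libraries 7, 8 and 9 and at 149, 94.1 and 130 CPM in severe libraries 13, 14 and 15. Severe library 14 was the only one below the mild range. Mild kidneys averaged 142 ± 10.5 CPM and severe kidneys 125 ± 28.1 CPM (SD, n = 3). On the log2 scale Scnn1a differed by -0.19 ± 0.16 (edgeR adjusted p = 0.479), by -0.02 when severe library 14 was left out and by -0.33 when severe library 13 was left out.

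Scnn1b (ENSMUSG00000030873, chr7:121865111-121918515, plus strand), the beta subunit, was at 61.3, 54.3 and 62.0 CPM in mild and at 66.7, 54.3 and 62.8 CPM in severe libraries. Its lowest mild and lowest severe library were at the same level to 3 digits. Scnn1b differed by 0.05 ± 0.10 log2 units (edgeR adjusted p = 0.768). Scnn1g (ENSMUSG00000000216, chr7:121734479-121768475, plus strand), the gamma subunit, lies 96.6 kb from Scnn1b on the same strand and was at 50.7, 44.3 and 45.0 CPM in mild and at 48.4, 46.1 and 46.6 CPM in severe libraries. All 3 severe values lay inside the mild range. Scnn1g differed by 0.01 ± 0.08 log2 units (edgeR adjusted p = 0.936), with a 95% interval from 0.887-fold to 1.15-fold.

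Because the channel needs its 3 subunits, their proportions were computed within each library from counts per kilobase of exon, which does not depend on scaling between libraries. Scnn1a made up 43.9%, 50.1% and 48.3% of the subunit reads per kilobase in mild libraries and 46.6%, 38.7% and 44.4% in severe ones. Its mean share was 47.4 ± 3.21% in mild and 43.2 ± 4.04% in severe kidneys (SD, n = 3), and the groups overlapped. Scnn1b took 32.5%, 29.1% and 31.5% in mild and 32.6%, 35.1% and 33.6% in severe libraries. For the Scnn1b share the severe libraries were all above the mild ones, narrowly so for severe library 13 and mild library 7. Scnn1g took 23.6%, 20.9% and 20.2% in mild and 20.8%, 26.2% and 22.0% in severe libraries, with overlap. These shares were described and not tested, since 3 against 3 libraries allow no exact two-sided p below 0.1.

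**Figure D2:**
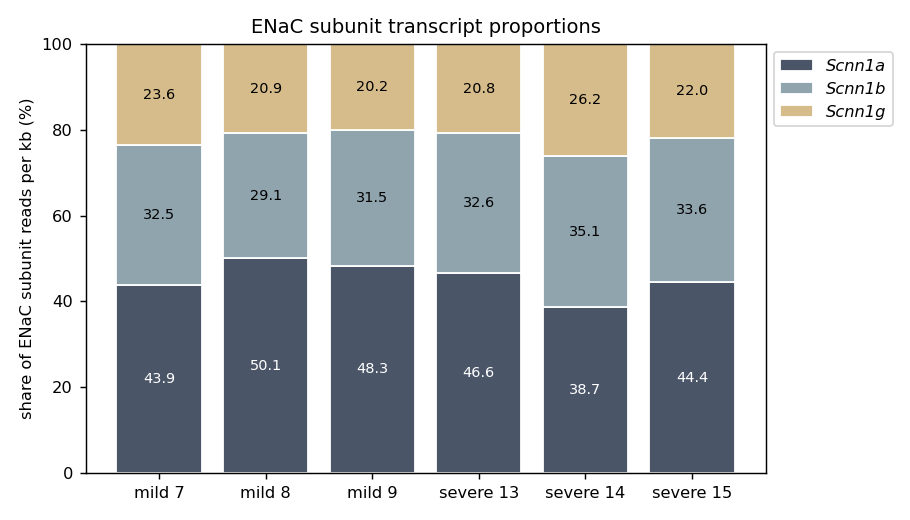
Share of the 3 ENaC subunit genes in their summed reads per kilobase of exon (vertical axis, percent), a stacked bar for each library. Scnn1a is the tallest segment in every library, smallest in severe library 14 at 38.7% and largest in mild library 8 at 50.1%.

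The receptor and its gatekeeper were a little lower on average in severe kidneys, with overlap in both. Nr3c2 (ENSMUSG00000031618, chr8:76899442-77245012, plus strand), the mineralocorticoid receptor, was at 16.7, 13.9 and 14.6 CPM in mild and at 14.1, 13.5 and 12.7 CPM in severe libraries. Severe libraries 14 and 15 lay below the mild range and severe library 13 inside it. Its log2 fold change was -0.16 ± 0.11 (edgeR adjusted p = 0.385). The antisense transcript Gm10649 reaches into the Nr3c2 locus, but had at most 3 counts in any library. Hsd11b2 (ENSMUSG00000031891, chr8:105518746-105523984, plus strand), which inactivates glucocorticoids in principal cells, was at 157, 182 and 181 CPM in mild and at 167, 149 and 169 CPM in severe libraries. Its lowest value was again in severe library 14. Hsd11b2 differed by -0.10 ± 0.10 log2 units (edgeR adjusted p = 0.542), with a 95% interval from 0.791-fold to 1.10-fold. Both values changed sign with library totals as the scaling, to 0.0055 for Nr3c2 and 0.06 for Hsd11b2, where the median of all genes moved to 0.17.

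Sgk1 and Tsc22d3, which corticosteroid receptors induce, had the largest positive differences among the 9. Sgk1 (ENSMUSG00000019970, chr10:21882184-21999903, plus strand) was at 61.3, 74.1 and 56.4 CPM in mild and at 90.03, 78.3 and 65.0 CPM in severe libraries. Severe libraries 13 and 14 were above the mild range, while severe library 15 was below mild library 8. Its mean was 64.0 ± 9.15 CPM in mild kidneys and 77.8 ± 12.5 CPM in severe kidneys, 0.28 ± 0.14 higher on the log2 scale (edgeR adjusted p = 0.259), which the test did not call. The difference of Sgk1 was 0.17 when severe library 13 was left out and 0.07 with sample quality weights. Tsc22d3 (ENSMUSG00000031431, chrX:140539528-140600659, minus strand) encodes GILZ, a glucocorticoid-induced leucine zipper protein that also promotes ENaC activity. It was at 28.2, 37.8 and 31.4 CPM in mild and at 44.7, 47.8 and 34.6 CPM in severe libraries, so severe library 15 was again below mild library 8. The log2 fold change of Tsc22d3 was 0.38 ± 0.15 (edgeR unadjusted p = 0.0342, adjusted p = 0.185), with a 95% interval from 1.03-fold to 1.66-fold, and 0.13 with sample quality weights. Both genes are also expressed outside principal cells. The summed level of 8 macrophage markers was 282 to 338 CPM in mild and 536 to 1037 CPM in severe libraries. Of these markers 8 of 8 were higher in every severe library, against 17.9% of all genes. The part of this shift in Sgk1 and Tsc22d3 was not tested.

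Nedd4l (ENSMUSG00000024589, chr18:64887756-65217826, plus strand), the ligase that removes ENaC from the surface, was the steadiest of the 9 over the 6 libraries. It was at 100, 109 and 105 CPM in mild and at 107, 111 and 110 CPM in severe libraries. Means of 105 ± 4.60 and 109 ± 1.90 CPM gave a log2 difference of 0.06 ± 0.07 (edgeR adjusted p = 0.636), with a 95% interval from 0.924-fold to 1.17-fold.

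Atp1b1 (ENSMUSG00000026576, chr1:164437267-164458355, minus strand), the beta subunit of the sodium pump, is used along the whole tubule and not in principal cells alone. It was at 2678, 2852 and 2876 CPM in mild and at 2705, 1865 and 2357 CPM in severe libraries. Severe libraries 14 and 15 lay below the mild range and severe library 13 inside it. Atp1b1 differed by -0.28 ± 0.20 log2 units (edgeR adjusted p = 0.388), with a 95% interval from 0.601-fold to 1.13-fold, the widest of the 9 on the log2 scale. The difference of Atp1b1 was -0.15 when severe library 14 was left out and -0.40 when severe library 13 was left out. The pump regulator Fxyd2, named outside the rule after its values were seen, was at 2072 ± 54.6 and 1565 ± 396 CPM. For Fxyd2 the severe values were all below the mild range. Fxyd4, the pump regulator of the collecting duct, was at 29.1 ± 6.29 and 24.1 ± 4.69 CPM, with overlap.

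**Figure D3:**
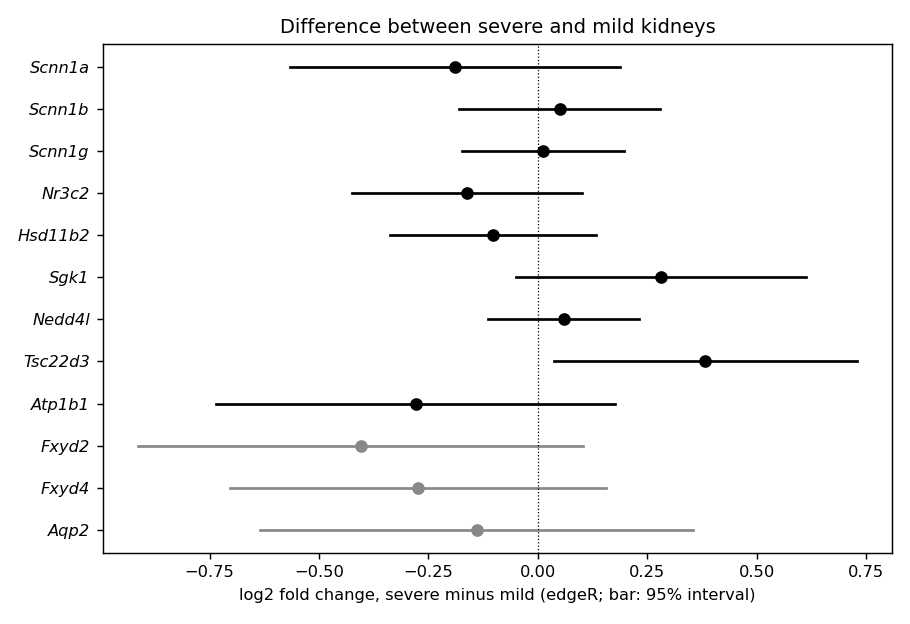
Log2 fold change, severe minus mild (horizontal axis), of the 9 genes (black) and of Fxyd2, Fxyd4 and Aqp2 (grey), with 95% intervals of the edgeR fit. The intervals of 8 of the 9 genes include 0, and that of Tsc22d3, from 0.04 to 0.73, does not, before adjustment over all genes.

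Per kilobase of exon, levels of the 9 genes in mild kidneys spanned from 2.33 ± 0.223 CPM per kilobase for Nr3c2 to 909 ± 35.2 for Atp1b1. Between them, in falling order, were Hsd11b2 at 94.3 ± 7.57, Scnn1a at 34.4 ± 2.54, Scnn1b at 22.5 ± 1.61, Scnn1g at 15.6 ± 1.18, Sgk1 at 13.05 ± 1.87, Tsc22d3 at 7.48 ± 1.13 and Nedd4l at 5.95 ± 0.261 CPM per kilobase. Over the 6 libraries the ranges of the neighbours Scnn1a and Scnn1b overlapped, as did those of Scnn1g and Sgk1, and those of the other neighbours did not. Within each single library Scnn1a was above Scnn1b. The order rests on the length used: with the longest transcript as length, Sgk1 was at 20.7 ± 2.95 and Nedd4l at 13.5 ± 0.591 CPM per kilobase, above Scnn1g and Tsc22d3 respectively.

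To set the 9 genes against the cells that carry the pathway, each was taken relative to 8 tested principal cell markers within the same library, as log2 CPM minus the mean log2 CPM of the markers. The markers had log2 fold changes between -0.31 and 0.14, with a median of -0.11, and 0 of 8 passed the test. They included the water channel Aqp2 (named outside the rule, mean 176 ± 45.2 CPM after mild, 159 ± 35.1 CPM after severe injury), the transcription factor Tfcp2l1 at 327 and 301 CPM and the matrix protein Npnt at 306 and 298 CPM. On this relative scale Tsc22d3 was at -0.87, -0.29 and -0.39 in mild and at -0.12, 0.28 and -0.27 in severe libraries. It was the 1 of 9 genes without overlap, against 16.8% of all genes tested (11.8% higher and 5.05% lower). The separation was narrow, with severe library 15 at -0.271 and mild library 8 at -0.286. Sgk1 was at 0.24, 0.68 and 0.45 in mild and at 0.88, 0.99 and 0.64 in severe libraries, with overlap. The relative difference was 0.15 for Scnn1b, 0.11 for Scnn1g, -0.11 for Scnn1a, -0.0005 for Hsd11b2, -0.06 for Nr3c2, 0.16 for Nedd4l and -0.19 for Atp1b1, each with overlap. These values rest on how the markers were averaged. The median of the 8 markers lay midway between Aqp3 (named outside the rule) and Fxyd4 in every library. Both had the lowest log2 fold changes of the markers, at -0.31 and -0.27. Against the median of the markers the differences were all above 0, at 0.36 for Scnn1b, 0.33 for Scnn1g, 0.10 for Scnn1a, 0.21 for Hsd11b2, 0.16 for Nr3c2, 0.37 for Nedd4l and 0.02 for Atp1b1, with 0.59 for Sgk1 and 0.69 for Tsc22d3. With any 1 library left out the relative difference lay between 0.30 and 0.60 for Tsc22d3, and on both sides of 0 for Scnn1a, Nr3c2 and Hsd11b2.

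Summed levels of markers of other cell types differed between the groups beside these genes. Of 10 proximal tubule markers 8 were lower in every severe library, with a median log2 fold change of -0.51. The same count was 4 of 8 for the thick ascending limb (median -0.40), 4 of 8 for the distal convoluted and connecting tubule (median -0.39) and 2 of 9 for intercalated cells (median -0.29), against 16.1% of all genes. The summed level of fibroblast markers was 435 to 558 CPM in mild and 913 to 3015 CPM in severe libraries, and that of injured tubule markers 2153 to 2861 and 2939 to 10268 CPM. In each of these lists 0 genes passed the test over all genes. The part of these shifts in the values of the 9 genes was not tested.

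**Figure D4:**
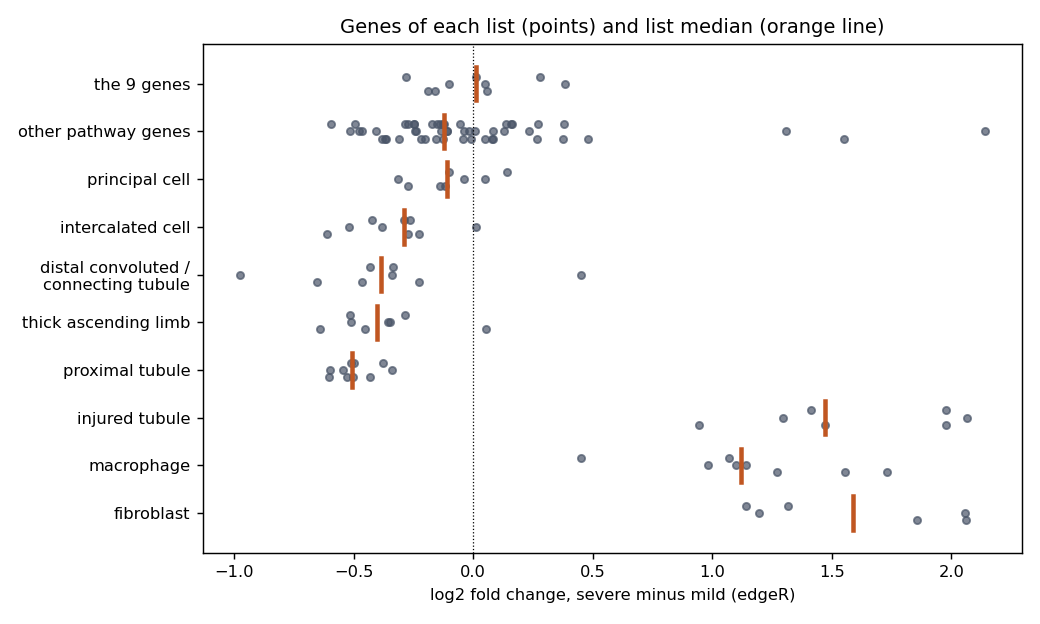
Log2 fold change, severe minus mild (horizontal axis), of each tested gene (points) in the 9 genes, the other pathway genes and the marker lists, with the list median as an orange line. The 9 genes lie between -0.28 and 0.38 around a median of 0.01, proximal tubule markers around -0.51 and fibroblast markers around 1.59.

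The wider pathway was described by 51 other genes, all tested, from the pump, the ENaC proteases, kinases, receptors, induced genes, potassium and chloride partners and the renin-angiotensin system. In the full comparison 0 of 51 passed, against 0.0134% of all genes, and their median log2 fold change was -0.12. At an unadjusted p under 0.05 (edgeR), 4 were higher and 6 lower, against 15.8% and 7.89% of all genes. In 4 all severe libraries were above and in 16 below the mild range, against 17.9% and 16.1% of all genes. Without severe library 13, 2 were called higher and 8 lower, where 13.8% and 7.74% of all genes were. Without severe library 14, 1 was called higher and 1 lower, against 2.4% and 0.931% of all genes, and without any 1 of the other 4 libraries 0 were.

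Of the 7 potassium and chloride partners of ENaC 0 passed the test with all 6 libraries. In 4 of the 7 every severe library lay below the mild range, against 16.1% of all genes, and 3 of these 4 also stand in the marker lists: Kcnj1 for the thick ascending limb, Slc26a4 for intercalated cells and Slc12a3 for the distal convoluted tubule. Kcnj1, which encodes the potassium channel ROMK, was at 206, 234 and 225 CPM in mild and at 181, 123 and 160 CPM in severe libraries. All severe values were below all mild ones. Its log2 fold change was -0.51 ± 0.15 (edgeR adjusted p = 0.115), and it passed without severe library 13 (-0.63, adjusted p = 0.0163) and without severe library 14 (-0.37, adjusted p = 0.0352). The basolateral potassium channel Kcnj10 was at -0.37 ± 0.15 and the chloride-bicarbonate exchanger Slc26a4 (pendrin) at -0.38 ± 0.14. The thiazide-sensitive cotransporter Slc12a3, which takes up sodium upstream of ENaC, was at 904 ± 63.3 and 656 ± 176 CPM (log2 fold change -0.46 ± 0.22), and Klhl3, the adaptor that directs WNK kinases to degradation, at 31.2 ± 4.37 and 20.6 ± 5.39 CPM (-0.59 ± 0.20). These 4 were not called in all 6 libraries (edgeR adjusted p from 0.146 to 0.231). Without severe library 13, Slc26a4 (-0.55, edgeR adjusted p = 0.0077), Klhl3 (-0.74, 0.0343) and Kcnj10 (-0.50, 0.0355) were. Of all genes, 7.74% were called lower in that setting, and 0.931% without severe library 14.

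Among genes that cut ENaC or guard it, Prss8 (prostasin), a protease that activates the channel, was at 307 ± 22.4 and 238 ± 48.7 CPM, differing by -0.36 ± 0.16 log2 units (edgeR adjusted p = 0.222). The protease inhibitor Serpine2 was at 23.2, 24.1 and 25.3 CPM in mild and at 36.6, 121 and 55.5 CPM in severe libraries. All severe values were above the mild ones, with the highest in library 14. Serpine2 differed by 1.55 ± 0.39 log2 units (edgeR adjusted p = 0.1001). The difference was 0.93 without severe library 14 (edgeR adjusted p = 0.0392) and 1.87 without severe library 13 (edgeR adjusted p = 0.0063). In these settings 2.4% and 13.8% of all genes were called higher. The deubiquitinase Usp2, which opposes Nedd4l, was at 108 ± 12.1 and 99.98 ± 31.1 CPM with overlap. The glucocorticoid receptor Nr3c1 was at 86.9 ± 5.18 and 80.6 ± 2.75 CPM, which differed by -0.11 ± 0.08 log2 units (edgeR adjusted p = 0.391).

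Of the 8 other genes that corticosteroids induce, 0 passed the test and 0 were without overlap, against 0.0134% and 34.0% of all genes. Fkbp5, a co-chaperone of the glucocorticoid receptor named outside the rule after its values were seen, was at 72.9, 117 and 79.7 CPM in mild libraries 7, 8 and 9 and at 155, 140 and 81.2 CPM in severe libraries 13, 14 and 15. Zbtb16, a zinc finger transcription factor, was at 5.79, 12.7 and 5.42 CPM in mild and at 46.4, 47.8 and 12.2 CPM in severe libraries. In both, as in Sgk1 and Tsc22d3, mild library 8 was the highest mild library and severe library 15 the lowest severe one, below mild library 8. Zbtb16 differed by 2.14 ± 0.54 log2 units (edgeR adjusted p = 0.1001), between 1.86 and 2.67 with any 1 library left out. The clock gene Per1 was at 16.4, 24.8 and 24.7 CPM in mild and at 32.9, 30.3 and 22.6 CPM in severe libraries.

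Of the 10 genes made up of Sgk1, Tsc22d3 and the 8 of the induced list, mild library 8 was the highest mild library in 6, and severe library 13 or 14 the highest severe library in 10. Severe library 15 was the lowest severe library in 7. The exceptions included the zinc finger gene Klf9, which was at 177, 181 and 196 CPM in mild and 186, 140 and 141 CPM in severe libraries, and the phosphatase Dusp1, at 42.1, 35.5 and 41.8 CPM and 47.8, 39.8 and 38.5 CPM. Klf9 and Dusp1 were picked after their values were seen. The counts of highest and lowest libraries were not made over all genes, so they describe these 10 genes only. With severe libraries 13 and 14 pooled, only severe library 15 was left as another highest one. In Per1 mild library 8 led narrowly, at 24.8 against 24.7 CPM in mild library 9. Klf9 had a log2 fold change of -0.25, and it was called lower when severe library 13 was left out (-0.39, edgeR adjusted p = 0.0290). Of all genes, 7.74% were called lower in that setting. Edn1, which encodes endothelin-1, a peptide that restrains ENaC in the collecting duct, was at 3.998, 5.27 and 4.05 CPM in mild and at 5.18, 19.4 and 8.48 CPM in severe libraries. Its log2 fold change was 1.31 with all 6 libraries (edgeR adjusted p = 0.154), 0.61 when severe library 14 was left out (0.158) and 1.66 when severe library 13 was left out (0.0154). Of all genes, 13.8% were called higher without severe library 13.

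**Figure D5:**
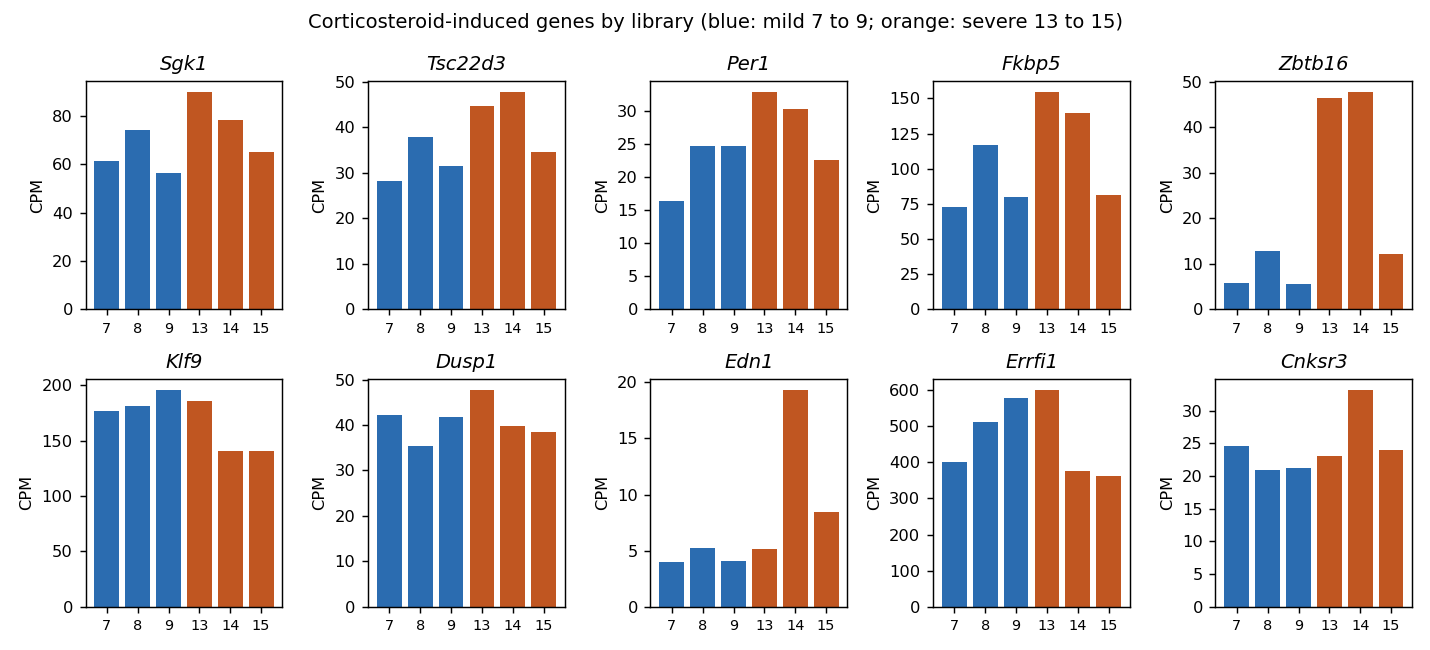
CPM (vertical axes, from 0) of Sgk1, Tsc22d3 and the 8 genes of the induced list in each library, numbered below the bars (blue mild, orange severe). Severe library 13 or 14 has the tallest severe bar in all 10 panels, and severe library 15 has the shortest severe bar in 7.

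The genes whose pattern lay closest to each of the 9 were found as the smallest root mean square difference of log2 CPM over the 6 libraries, each gene centred on its own mean. For Scnn1a these were Slc2a9 (0.0145), Ceacam1 and Tob1, for Scnn1b Sharpin (0.0336), Rab11fip1 and Bloc1s5, and for Scnn1g Xab2 (0.0206), H2afz and Ftsj1. Nr3c2 was closest to Tbca (0.0229), Bud31 and Phf5a, and Hsd11b2 to Ilvbl (0.0225), Tmem134 and Setd8. Nedd4l was closest to the insulin receptor gene Insr (0.00875), Sidt2 and Gnb2, and Atp1b1 to Fam188a (0.0170), Grina and Eno1. Sgk1 was closest to Mipol1 (0.0727), Prkch and Med11, and Tsc22d3 to Tnfrsf26 (0.0558), Zfp280c and Chrna1os.

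Within a difference of 0.1 there were 9 genes for Sgk1 and 12 for Tsc22d3, against 496 to 2476 for the other 7. Genes with little variation lie close to many others by this measure. At a like spread the number still differed. The root mean square of the centred values was 0.227 for Sgk1, 0.233 for Scnn1a (496 genes) and 0.218 for Atp1b1 (1278 genes). Among the 9 themselves the closest pair was Scnn1a and Atp1b1 (0.0670), followed by the neighbours Scnn1b and Scnn1g (0.0939). Scnn1a and Atp1b1 were both lowest in severe library 14, as were Hsd11b2 and, by a narrow margin, Scnn1b. Sgk1 and Tsc22d3 differed by 0.129.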

How the data were processed

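Poly-A RNA of 6 whole kidneys was sequenced, 3 in each group. Per the labels' protocols, TRIzol extraction and DNase digestion were followed by library preparation with a NEBNext Ultra kit. The software named in the submitters' processing notes is HTSeq 0.6.1, TopHat2 2.0.12 and Bowtie2 2.2.3, with the build mm10; what each did, and the strand setting and annotation used for counting, is not given in the sources used here. Values are whole-number read counts for each Ensembl gene, as deposited by the authors and not normalized, with a gene length in bases, per the file headers. Without a known strand setting, reads of overlapping antisense genes cannot be told apart.

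Columns name the minutes of ischaemia and a number that matches no sample title, so the libraries were taken as unpaired replicates of their group; 0 columns of per-sample values were left out. Genes were filtered with filterByExpr, scaled by TMM and tested with the robust quasi-likelihood test of edgeR 4.0.16 (R 4.3.3), with a threshold of 0.05 on the Benjamini-Hochberg adjusted p. Intervals of 95% use the moderated degrees of freedom. Log2 CPM used a prior count of 2. Exon lengths, the union over transcripts, and coding sequences came from GENCODE M21; 1 marker symbol was matched through an older name (Emr1 for Adgre1). A planned search of protein sequences was replaced by in-frame codons, chosen after the files were seen; the looser palindrome was also added then. As alternatives, scaling was by RLE, upper quartiles or library totals, and other filters, DESeq2 1.42.0, limma-voom (limma 3.58.1) with and without quality weights, dispersion that was not robust, a table without mitochondrial genes or any gene above 1% of all counts, and the omission of each library were tried. The fit was tested on simulated counts. Figures were drawn with matplotlib 3.10.9.

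The 9 genes and the lists were chosen with earlier results of these data known, so no p was adjusted over a list alone and no list was tested. Named genes were all 9, 8 fixed pathway genes, the 6 further pathway genes with the smallest p, the 3 closest genes in pattern to each of the 9, and up to 2 of the most abundant genes of each marker list; others are marked where they appear. Of the fixed pathway genes, 1 is not reported here.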

Additional observations from a re-analysis of the deposited data

How the results depend on the processing

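The 9 log2 fold changes had 16 alternatives each. Scnn1a, Nedd4l, Sgk1 and Tsc22d3 kept their sign and stayed short of the threshold in all 16, with adjusted p of at least 0.122, 0.179, 0.119 and 0.117. Atp1b1 kept its sign in 16 and passed in 1. With library totals as the scaling, which raised the median of all genes to 0.17, Nr3c2 was at 0.00547 and Hsd11b2 at 0.0623, the median of the 9 was 0.18, 3 of the 9 did not overlap (35.8% of all genes) and 1 gene of the table was called. Scnn1g was at -0.0018 with DESeq2. With any 1 library left out Scnn1b lay between -0.00798 and 0.13 and Scnn1g between -0.0183 and 0.0802. The number of genes called over the table was 146 with no filter, 1093 with DESeq2 and 5041 with quality weights, against 2, and between 0 (any 1 mild library) and 3269 (severe library 13) with 1 library left out. Of the 9, quality weights called 1 (Atp1b1, -0.24), and leaving out any 1 library called 0. The number without overlap was between 0 and 4 with any 1 library left out, against 0: 3 without mild library 7 (42.8% of all genes), 4 without mild library 8 (41.8%), 0 without mild library 9 (43.0%), 3 without severe library 13 (56.6%), 1 without severe library 14 (39.0%) and 2 without severe library 15 (40.6%). Relative to the principal cell markers it was 2 with their median in place of the mean (14.9% of all genes) and between 1 and 3 with any 1 library left out, against 1: 3 without mild library 7 (30.3%), mild library 9 (32.3%) or severe library 13 (45.7%), 2 without mild library 8 (20.0%) or severe library 15 (23.4%) and 1 without severe library 14 (19.0%). The Scnn1a share of ENaC differed by between -5.98 and -1.95 percentage points over 8 alternatives, 1 of them, the length given in the table, chosen after seeing the data. No paired analysis was possible because the groups share no replicate numbers and the columns match no sample title. The cause of these shifts was not tested. The lowest count of any of the 9 genes in a library was 207.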

Other observations

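The renin-angiotensin genes that stand upstream of aldosterone, named here as a whole list outside the rule, had log2 fold changes between -0.48 and 0.16, and 0 of 4 passed the test with all 6 libraries (edgeR). Renin (Ren1) was at 44.0, 56.9 and 52.4 CPM in mild and at 71.0, 39.6 and 30.1 CPM in severe libraries, so the severe libraries lay on both sides of the mild range. Its log2 fold change was -0.12 with all 6 libraries and -0.54 without severe library 13, where it was called (edgeR adjusted p = 0.0361). Of all genes, 7.74% were called lower in that setting. The converting enzyme Ace was at 265, 250.9 and 261 CPM in mild and at 230, 105 and 224 CPM in severe libraries, all below the mild ones. Angiotensinogen (Agt) and the angiotensin receptor Agtr1a stood at log2 fold changes of 0.08 ± 0.09 and 0.16 ± 0.09.

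Mc2r, the receptor for adrenocorticotropic hormone and a marker of the adrenal gland list, was at 2.53 CPM in severe library 14. In the other 5 libraries it was between 0.0686 and 0.615 CPM. The rest of the list, apart from Star, is named here outside the rule. Cyp11b1 (2 counts), Dbh and Pnmt (1 count each) had their only counts in severe library 14. Cyp11a1 had its 1 count in severe library 15, and Cyp11b2, Cyp21a1 and Th had 0 counts in every library. Star was at 3.15 CPM in severe library 14. Counts of 1 or 2 are too few to compare libraries. Mc2r had too few counts for the test.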
